A study of Mus musculus with 35 samples.

Results

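Cells carrying ACSA2 were collected from the hippocampus of mice on a high-fat high-sugar diet (HFHS) or standard chow (SC), and their RNA was compared between the diets. The comparison takes every library whose title names the hippocampus, which gave 5 SC and 7 HFHS libraries, or 12 of the 35 libraries of the series. All animals were male C57BL/6JRj mice. SC mice stayed on chow, and HFHS mice received the diet that the labels describe as 58% HFHS, from 8 to 9 weeks of age and for 4 months. Hippocampi of 2 mice were pooled into each replicate, so the spread between replicates is a spread between pools. The labels do not say whether pools were prepared on separate days, and p-values measure the spread between these pools only. The tissue was dissociated, cells were pulled down with magnetic beads against ACSA2 on MS columns, and cDNA was amplified with a low-input kit that does not record strand. The rest of the series holds the hypothalamus (11 libraries) and the cortex (12 libraries) on the same diets.

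ACSA2 is an epitope of the sodium pump subunit encoded by Atp1b2 and is used to enrich astrocytes. Astrocytes take up glutamate, store glycogen, pass lactate and lipoproteins to neurons and wrap blood vessels with their endfeet, so they stand between circulating nutrients and hippocampal circuits. In rodents, diets rich in fat and sugar are widely studied for effects on hippocampal memory and on glial reactivity. A sorted fraction still holds other cells, and in bulk RNA fewer cells of a type and less RNA per cell cannot be told apart.

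Reads assigned to transcripts ranged from 47642159 to 65982495 per hippocampal library. Of the 20 astrocyte markers, all were detected in every library, but their summed level (CPM scaled by the TMM method, a per-million read count not corrected for length) ranged from 4025 to 22115 on SC and from 4394 to 24001 on HFHS. Myelin markers summed to between 72852 and 125420 on SC and between 59112 and 160610 on HFHS, and none of the 15 was at 0 in any library. The fraction is therefore called ACSA2+ here, and its label as astrocytes names an enrichment. Choroid plexus markers summed to 97.1 in SC 3 and to between 2823 and 23144 in the other 11 libraries. Atp1b2 itself averaged 278 ± 174 CPM on SC and 211 ± 172 CPM on HFHS (SD, n = 5 and n = 7, as for all means below), with a log2 fold change, HFHS minus SC, of -0.39 ± 0.56 (SE). Gfap, the astrocyte intermediate filament, averaged 459 ± 275 and 371 ± 252 CPM, and Aqp4, the endfoot water channel, 181 ± 121 and 193 ± 123 CPM. These 3 genes varied several times over among libraries of the same diet.

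Some libraries stood apart before any gene was compared. The mean length of the transcripts in a library, weighted by TPM, was between 1665 and 1858 bases in the 5 SC libraries and between 1576 and 1633 bases in 6 of the 7 HFHS libraries. HFHS 2 lay at 1852 bases, beside SC 2 at 1858 bases. The same pair had the highest correlation of log2 CPM among the 66 pairs of hippocampal libraries (r = 0.990), although the diets differ. HFHS 4 had the highest sum of microglia markers, 2239 CPM against 475 to 1308 in the other libraries. Values without these libraries are given beside results that they moved.

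**Figure D1:**
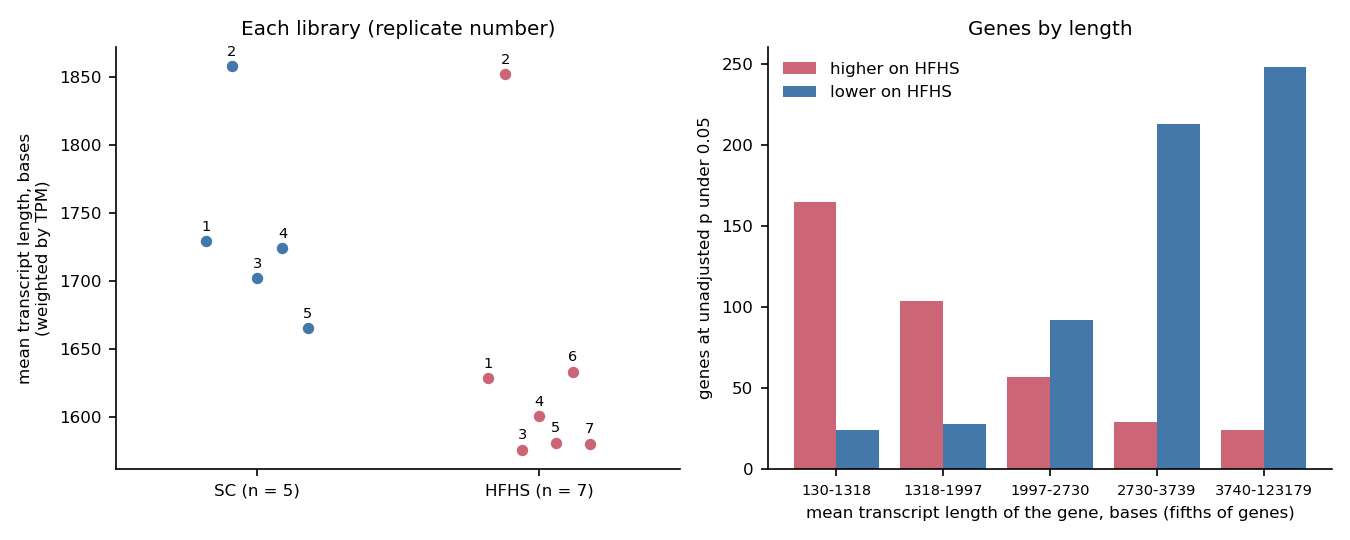
Left, the mean transcript length of each hippocampal library in bases, weighted by TPM, with the replicate number beside each point. HFHS 2 (1852 bases) lies with SC 2 (1858 bases), and the other HFHS libraries lie between 1576 and 1633 bases. Right, the number of genes at an unadjusted p under 0.05 that were higher (red) or lower (blue) on HFHS, in 5 bins of genes from the shortest to the longest. The shortest bin holds 165 higher and 24 lower genes, the longest 24 higher and 248 lower.

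No gene separated the diets at an adjusted p under 0.05. With edgeR's quasi-likelihood test 0 of 19036 genes (0.0%) passed, and the smallest adjusted p was 0.497. At an unadjusted p under 0.05 there were 379 genes with higher levels on HFHS (1.99%) and 605 with lower levels (3.18%), 984 in all (5.17%). Every HFHS library lay above every SC library for 25 genes (0.131%) and below every SC library for 35 genes (0.184%). DESeq2 called 14 genes, 4 higher and 10 lower. Of the higher ones only Psmg1, at a log2 fold change of 0.39, has no predicted name. The other higher calls were predicted genes, at 2.02, 7.34 and 8.01. By contrast, voom with sample quality weights called 0 and left 2134 at an unadjusted p under 0.05. Upper quartile scaling called 0 as well but turned the split of the unadjusted calls to 698 higher and 475 lower. A p that misses the threshold does not show that levels were equal. The levels below are therefore descriptions of 12 pools, given with their standard errors.

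Among the genes with lower levels on HFHS, the smallest p belonged to Cdk17, a cyclin-dependent kinase of the PCTAIRE group (chr10:93160875-93267071, plus strand, GRCm38). Its levels on SC were 89.1, 92.6, 80.4, 85.6 and 85.9 CPM, and on HFHS the lowest, median and highest were 47.9, 54.6 and 64.2 CPM. The groups did not overlap, and HFHS 6, the highest on its diet, still lay under SC 3, the lowest on chow. The log2 fold change was -0.64 ± 0.11, with an adjusted p of 0.497 by edgeR and 3.75e-06 by DESeq2. Without SC 2 and HFHS 2 it was -0.63, and over all leave-one-out fits it stayed between -0.68 and -0.61. Of the 10 tested kinases and cyclins of its group and neighbouring groups, Cdk17 was the only member at an unadjusted p under 0.05. A negative fold change was held by 8 of the 10. Over all genes tested, 5.17% had such a p and 9420 of 19036 had a negative fold change. The median gene of this list is 2736 bases long, against 2339 for all genes tested. Cdk16, another PCTAIRE kinase, averaged 172 ± 23.7 CPM on SC and 126 ± 51.1 CPM on HFHS, with HFHS 1 at 218 CPM above all SC libraries.

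The next smallest p in this direction, once genes averaging under 3 on the log2 CPM scale were set aside, belonged to Acp2, the lysosomal acid phosphatase. Col3a1, which is below that level and is described with the collagens, had a smaller p. Acp2 measured 74.0, 59.4, 53.9, 66.4 and 74.2 CPM on SC and a lowest, median and highest of 21, 35.5 and 45.6 CPM on HFHS. The groups did not overlap, and HFHS 2 was the highest HFHS library. The log2 fold change was -1.03 ± 0.20, with an adjusted p of 0.854 by edgeR and 0.0130 by DESeq2. It was -1.17 without the pair numbered 2. Gfpt1 makes the first, rate-limiting step of the hexosamine route, which turns glucose carbon into the sugar donor for glycosylation (chr6:87042846-87092197, plus strand). It measured 21.4, 23.9, 17.8, 25.1 and 26.6 CPM on SC and 7.44, 9.91 and 17.7 CPM (lowest, median, highest) on HFHS, a log2 fold change of -1.07 ± 0.21. Again HFHS 2 was the highest HFHS library, just under SC 3, and the fold change was -1.21 without the pair numbered 2. Man1b1, a mannosidase that trims glycans of misfolded proteins in the endoplasmic reticulum, had 46.4, 40.5, 44.1, 40.3 and 36.7 CPM on SC and 9.13, 13.7 and 29.1 CPM on HFHS. HFHS 1 and HFHS 2 were the highest of their group at 28.3 and 29.1 CPM, and the fold change was -1.29 ± 0.29.

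The other genes with the smallest p in this direction spanned several functions. Cbfa2t2, a transcriptional corepressor, averaged 46.4 ± 5.60 CPM on SC and 27.9 ± 5.34 CPM on HFHS. Trappc8, a vesicle tethering subunit, averaged 46.4 ± 7.48 and 30.3 ± 5.09 CPM, and Tbcel, a tubulin cofactor-like protein, 47.3 ± 13.2 and 25.8 ± 5.77 CPM. Iqce, which acts at the base of cilia, averaged 26.0 ± 5.10 and 14.6 ± 3.74 CPM. For Cbfa2t2, Cdv3 and Lrch4 the diets did not overlap, while for Trappc8, Tbcel and Iqce at least 1 library crossed. Cdv3 had a log2 fold change of -0.74 ± 0.18 and Lrch4 of -0.86 ± 0.21. DESeq2 also called Gfpt1 (adjusted p 0.0130), Cbfa2t2 (0.0185) and Man1b1 (0.0468).

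**Figure D2:**
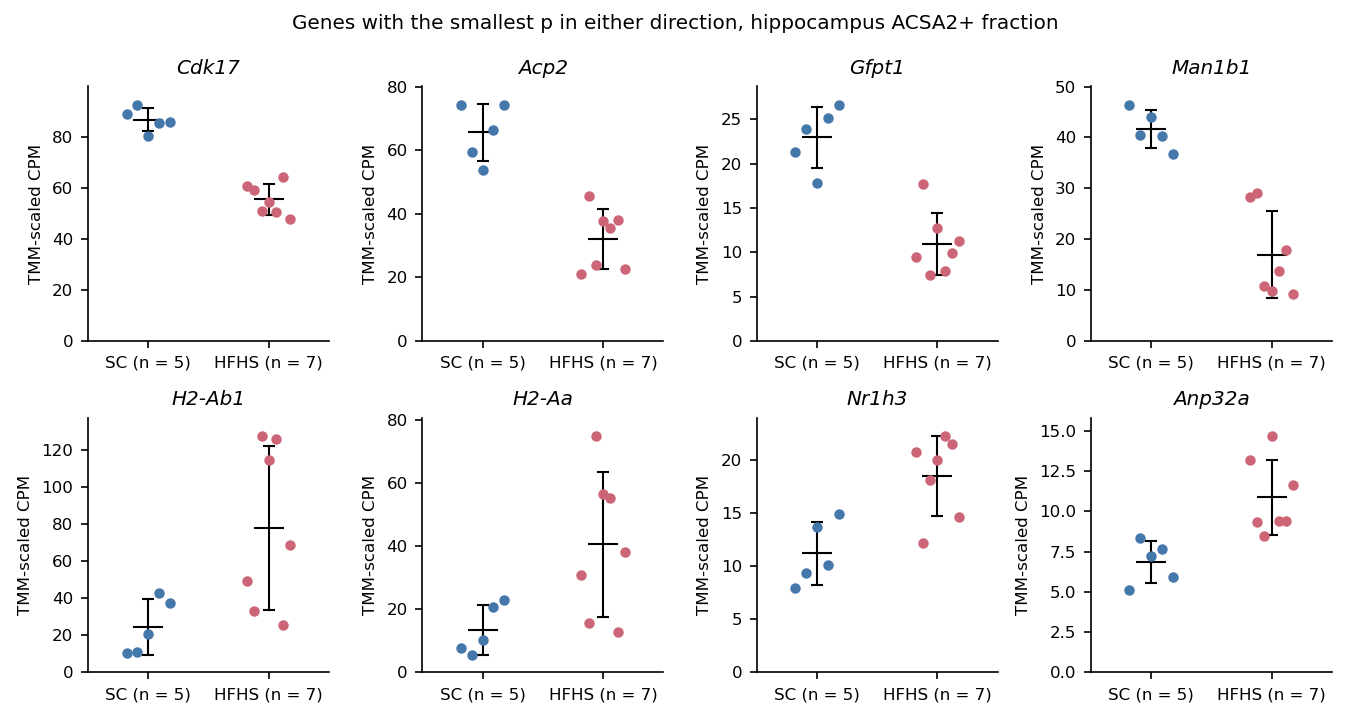
TMM-scaled CPM of 8 genes in each SC (blue) and HFHS (red) library, with the mean and SD of each diet as black bars. Cdk17, Acp2, Gfpt1 and Man1b1 lie lower in every HFHS library than in any SC library, Anp32a lies higher in every one, and H2-Ab1, H2-Aa and Nr1h3 overlap between diets.

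Acp2 also had the transcript share with the smallest p between diets, so its annotated transcripts were examined. In GENCODE release 21 the gene lies at chr2:91202885-91214098 on the plus strand. Acp2-201, the long coding transcript of 4656 bases, splices out intron 6, while Acp2-202, annotated as a retained intron transcript of 3124 bases, keeps it and ends 1956 bases earlier. The stretch shown joins the end of exon 6 to the start of that intron in Acp2-202 (GENCODE, GRCm38, chr2:91206248-91206367, plus strand). It was chosen because Acp2-202 contains the intron bases and Acp2-201 does not. Lower case marks the last 30 bases of exon 6, and capitals mark the first 90 of the 439 intron bases.
Acp2-202: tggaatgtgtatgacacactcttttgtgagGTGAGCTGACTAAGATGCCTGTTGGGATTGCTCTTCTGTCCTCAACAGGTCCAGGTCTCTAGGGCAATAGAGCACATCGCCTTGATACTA
Acp2-201 made up 64.6, 64.4, 60.0, 68.9 and 58.8% of the gene's TPM on SC, and 26.2, 37.9 and 49.2% (lowest, median, highest) on HFHS. Acp2-202 made up 23.8, 22.8, 31.9, 24.1 and 31.3% on SC, and 36.4, 49.6 and 54.8% on HFHS. Neither share overlapped between diets. In TPM, Acp2-201 averaged 15.8 ± 2.31 on SC and 5.04 ± 2.12 on HFHS, whereas Acp2-202 averaged 6.64 ± 1.36 and 6.26 ± 1.81. By these estimates the lower gene level on HFHS lay in Acp2-201, and the level of Acp2-202 differed by less than its SD. The 2 transcripts overlap and differ at their ends as well as in the intron. The division of estimated reads between them is uncertain and was not tested, so these values alone do not tie the difference to splicing. For both shares the adjusted p was 0.292 in limma on the arcsine square root of the share, and for Acp2-201 it was 0.0458 without HFHS 2.

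Across transcripts the shares gave no call either. Of 16492 transcripts of 7053 genes, 0 (0.0%) passed an adjusted p under 0.05 in limma, with 584 higher (3.54%) and 638 lower (3.87%) at an unadjusted p under 0.05. The diets did not overlap for 27 transcripts with a higher share on HFHS (0.164%) and 39 with a lower share (0.236%). Leaving out HFHS 2 gave 19 calls, leaving out SC 3 gave 2 and leaving out HFHS 3 gave 1, while the 9 other single omissions gave 0. Pitpnc1 encodes a phosphatidylinositol transfer protein, and its long transcript Pitpnc1-202 (6329 bases) made up 65.3 ± 4.59% of the gene on SC and 50.1 ± 3.29% on HFHS. Its short transcript Pitpnc1-203 (650 bases) made up 20.9 ± 4.59% and 37.2 ± 6.78%. The diets overlapped for neither. Ccp110, a centriole cap protein that restrains cilium growth, had Ccp110-202 at 79.2 ± 2.96% and 91.2 ± 3.06%, and the longer Ccp110-203 at 18.8 ± 3.26% and 7.65 ± 2.83%. Slirp, which protects mitochondrial messenger RNA, had Slirp-202 at 43.0 ± 4.19% on SC and 56.2 ± 3.19% on HFHS.

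Transcripts listed at 0 in part of the libraries need each value. Kdm4a, a histone lysine demethylase, had its transcript Kdm4a-201 at 13.5, 0.0, 0.0, 2.05 and 8.20% of the gene on SC. On HFHS the shares were 42.8, 10.8, 48.3, 39.6, 41.7, 54.1 and 36.6% for HFHS 1 to 7, so HFHS 2 alone fell within the SC range. Men1, which encodes the chromatin scaffold menin, had Men1-208 at 11.2% in SC 3 and listed at 0 in the 4 other SC libraries. In HFHS libraries it was 18.2, 25.2, 33.0, 13.7, 16.6, 17.3 and 11.6%, and Men1-206 was at 0 in HFHS 1, 3, 5 and 6 while present in all SC libraries. Men1-206 averaged 18.7 ± 7.79% on SC and 4.49 ± 6.98% on HFHS, and Men1-208 2.25 ± 5.02% and 19.4 ± 7.36%. They are annotated at 2652 and 2663 bases. The division of estimated reads between them is uncertain and was not tested, so these values alone do not show a switch between the 2 transcripts.

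**Figure D3:**
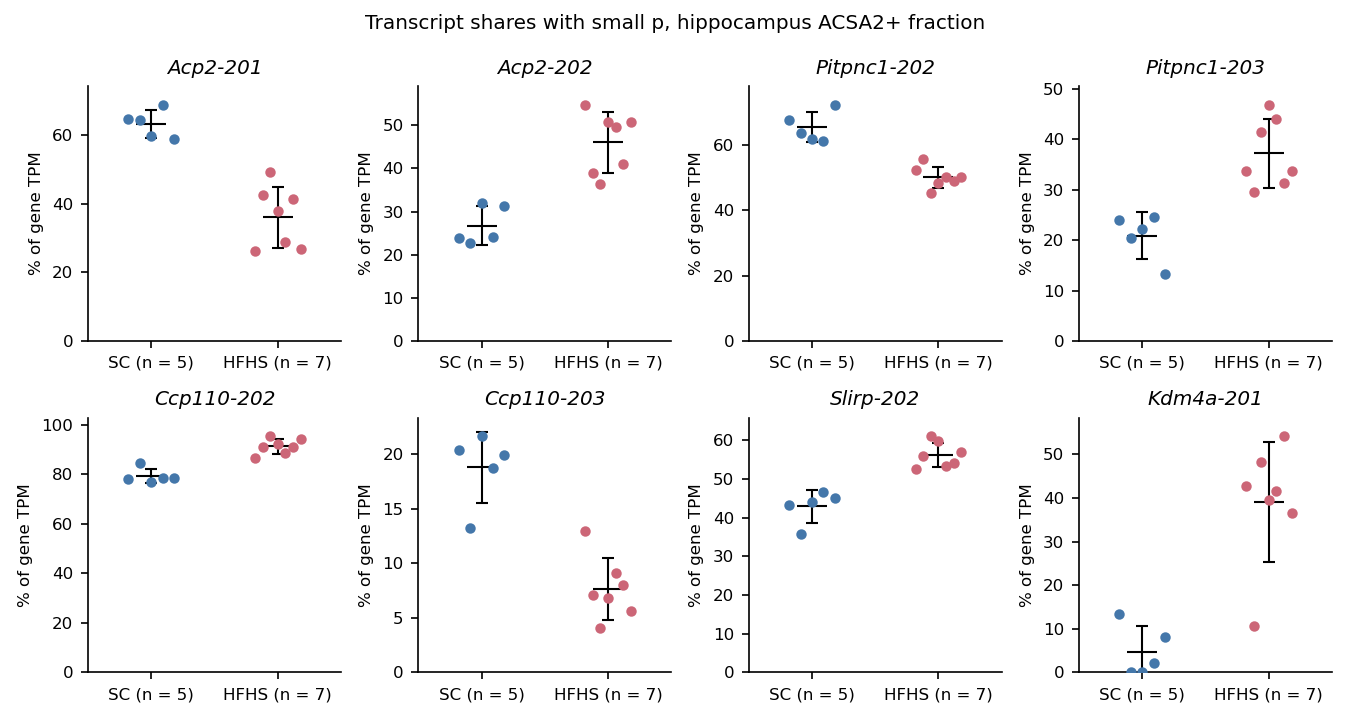
Share of the gene's TPM, in percent, taken by 8 transcripts in each SC (blue) and HFHS (red) library, with mean and SD as black bars. Acp2-201 averaged 63.3% on SC and 36.1% on HFHS and Acp2-202 26.8% and 46.0%, and Kdm4a-201 overlaps between diets only through HFHS 2 (10.8%).

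Shares also leaned by the kind and the length of the transcript. Among 1825 retained intron transcripts, 102 had higher and 30 lower shares on HFHS at an unadjusted p under 0.05, with a median difference of 0.98 percentage points. Among 12145 protein coding transcripts these counts were 359 and 535, with a median difference of -0.38 points. Other noncoding kinds leaned as well, with 66 and 33 of 1277 processed transcripts (median 0.97 points) and 38 and 20 of 818 nonsense-mediated decay transcripts (0.73). Antisense transcripts had 8 and 8, and lincRNA transcripts 9 and 10. Retained intron, processed and coding transcripts had median lengths of 1095, 730 and 2487 bases. The parts of kind and length were not tested apart. The longest tested transcript of a gene had a lower share on HFHS in 58.6% of 6049 genes, and the shortest in 42.5%. Retained intron transcripts took between 1.76 and 3.24% of the estimated counts of each hippocampal library, and the diets overlapped in that measure.

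The same lean was present between genes. In the 5 bins of genes by mean transcript length, the median log2 fold change went from 0.17 in the shortest (130 to 1318 bases) through 0.11, -0.01 and -0.14 to -0.22 in the longest (from 3740 bases). Across genes, which are not independent, the Spearman correlation of fold change with length was -0.39. It was -0.44 without HFHS 2 and -0.09 with the mean transcript length of each library as a covariate. That covariate is computed from the same libraries, so a correlation nearer to 0 follows largely from its use. Among HFHS libraries only HFHS 2, at 1852 bases, reached the SC range. The covariate therefore nearly separates the diets, and all values given with it lean on HFHS 2. Cdk17, Acp2, Gfpt1 and Man1b1 have mean lengths of 3490, 3609, 4572 and 3310 bases, against a median of 2339 bases over all genes tested. With that covariate their fold changes were -0.57, -0.90, -0.86 and -1.01. The part of transcript length in the gene differences was not tested beyond these values.

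Higher levels on HFHS had larger p. Nr1h3 encodes the oxysterol receptor LXR alpha, which drives cholesterol export, and lies on the opposite strand of chromosome 2, its gene bounds 50 bases from those of Acp2. Its levels were 7.98, 9.35, 13.7, 10.1 and 14.9 CPM on SC and 12.2, 20.02 and 22.3 CPM (lowest, median, highest) on HFHS. HFHS 2 and HFHS 7 lay within the SC range, and the other 5 HFHS libraries lay above it. The log2 fold change was 0.72 ± 0.21, with an adjusted p of 0.876 by edgeR. It was 0.47 with transcript length as a covariate. Anp32a, a nuclear histone chaperone, had 5.14, 8.33, 7.25, 7.66 and 5.93 CPM on SC and 8.50, 9.43 and 14.7 CPM on HFHS, without overlap. Dnajc9, a co-chaperone that binds histones, averaged 44.4 ± 3.38 and 55.7 ± 3.44 CPM, also without overlap, a log2 fold change of 0.33 ± 0.10.

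Further genes in this group overlapped between diets. Gem, a small GTPase that dampens calcium channels, had 7.46, 11.4, 7.49, 10.3 and 9.36 CPM on SC and 5.21, 21.01 and 28.4 CPM on HFHS. HFHS 1 was the lowest of all 12 libraries for Gem, while the 6 other HFHS libraries lay above all SC libraries. P2ry14, a receptor for UDP-sugars, averaged 40.0 ± 14.3 CPM on SC and 78.3 ± 28.1 CPM on HFHS. Nupr1, a stress-induced chromatin protein, averaged 15.7 ± 2.63 and 24.3 ± 5.13 CPM, and Ggt1, which breaks down extracellular glutathione, 9.49 ± 1.57 and 15.7 ± 4.71 CPM. Srrd averaged 16.1 ± 1.79 and 22.2 ± 2.84 CPM.

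Genes of antigen presentation by class II molecules had higher means on HFHS. In the brain, these molecules are carried by macrophages, dendritic cells and activated microglia and present peptides to CD4+ T cells. The promoters of H2-Aa and H2-Eb1, an alpha and a beta chain of different class II molecules, are shown because these genes varied together across libraries. They come from RefSeq (GRCm38.p6, 250 bases before to 50 after the start), H2-Aa from chr17:34287774-34288073 on the minus strand and H2-Eb1 from chr17:34305617-34305916 on the plus strand. Capitals mark CTGATTGG, searched on both strands (CCAATCAG on the other), the core of the Y box of class II promoters. Its first base lies 51 bases before the start of H2-Aa and 62 before that of H2-Eb1, and 1346 of 32851 promoters of this length (4.1%) hold it. A match is a description of letters. The promoter set used holds no entry for H2-Ab1.
H2-Aa: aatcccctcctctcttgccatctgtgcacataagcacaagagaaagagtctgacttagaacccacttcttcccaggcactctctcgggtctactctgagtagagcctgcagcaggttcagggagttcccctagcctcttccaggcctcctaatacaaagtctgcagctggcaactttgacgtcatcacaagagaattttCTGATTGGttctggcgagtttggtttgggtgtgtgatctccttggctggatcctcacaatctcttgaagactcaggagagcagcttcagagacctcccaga
H2-Eb1: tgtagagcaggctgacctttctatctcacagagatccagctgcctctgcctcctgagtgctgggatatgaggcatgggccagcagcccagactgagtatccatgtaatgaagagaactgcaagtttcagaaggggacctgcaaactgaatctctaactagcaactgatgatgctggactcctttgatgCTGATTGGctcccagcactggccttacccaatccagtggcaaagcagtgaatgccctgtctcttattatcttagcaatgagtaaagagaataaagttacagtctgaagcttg

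H2-Aa measured 7.89, 5.59, 10.4, 20.8 and 23.01 CPM on SC and 12.9, 38.1 and 74.8 CPM (lowest, median, highest) on HFHS. H2-Ab1, the beta chain that pairs with it, had 10.6, 11.1, 20.7, 42.6 and 37.5 CPM on SC and 25.4, 68.5 and 127 CPM on HFHS. H2-Eb1 had 4.65, 3.18, 7.31, 13.8 and 16.9 CPM and 12.3, 29.6 and 52.6 CPM. SC 4 and SC 5 were the high chow libraries and HFHS 2 and HFHS 6 the low HFHS libraries for all 3 genes, so the diets overlapped. Log2 fold changes were 1.58 ± 0.49, 1.66 ± 0.50 and 1.62 ± 0.46, each with an adjusted p of 0.876 by edgeR. Cd74, the invariant chain that guides class II molecules, averaged 69.5 ± 41.3 CPM on SC and 165 ± 74.9 CPM on HFHS, with a log2 fold change of 1.24 ± 0.42. Without SC 2, HFHS 2 and HFHS 4 the 4 values were 1.47 for H2-Aa, 1.53 for H2-Ab1, 1.52 for H2-Eb1 and 1.17 for Cd74. With transcript length as a covariate they were 0.84, 0.98, 1.01 and 0.69, a smaller difference in each.

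The rest of the interferon and antigen presentation list moved less. Of its 23 genes, 3 had higher levels at an unadjusted p under 0.05 (H2-Ab1, H2-Aa and Cd74) and 0 had lower levels. Over all genes these shares were 1.99% and 3.18%. H2-Eb1 is not on the list. The list's median log2 fold change was 0.27 against 0.00 over all genes. With transcript length as a covariate 1 was higher and the median was -0.15, on the other side of 0. Stat2, which carries the type I interferon signal, averaged 22.5 ± 4.60 CPM on SC and 17.9 ± 4.02 CPM on HFHS. The list's sum was lowest in SC 2 at 681 CPM and highest in HFHS 5 at 1779 CPM.

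Microglia markers were measured beside the class II genes, since microglia are the resident immune cells of the tissue. All 14 had a positive fold change, with a median of 0.78. At an unadjusted p under 0.05, 8 were higher and 0 lower, against 1.99% and 3.18% of all genes tested. C1qb, a subunit of complement C1q, had 69.1, 49.1, 69.7, 81.3 and 111 CPM on SC and 89.7, 135 and 370 CPM (lowest, median, highest) on HFHS. HFHS 4 held the 370 CPM, and the next highest library had 152 CPM. C1qa averaged 33.0 ± 9.13 CPM on SC and 55.0 ± 27.3 CPM on HFHS, C1qc 66.0 ± 16.5 and 129 ± 86.7 CPM, and Aif1, the marker Iba1, 4.97 ± 2.00 and 10.7 ± 6.33 CPM. The fold changes of C1qa, C1qc and Aif1 were 0.73, 0.97 and 1.099 with all libraries, and 0.46, 0.56 and 0.75 without HFHS 4. Without HFHS 4 the count was 3 of 14 and the median 0.42. Without SC 2, HFHS 2 and HFHS 4 it was 2 of 14 and the median 0.22, and with transcript length as a covariate 1 of 14. Leaving out SC 2 alone gave 3 of 14. The fold change of C1qb was 1.02 ± 0.35 with all libraries and 0.64 without HFHS 4.

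Cytokine genes followed HFHS 4 as well. Ccl3, a chemokine, had 4.76, 2.56, 4.18, 5.87 and 7.47 CPM on SC and 3.55, 8.86 and 54.6 CPM on HFHS, the last in HFHS 4. Its log2 fold change was 1.55 ± 0.66 with that library and 0.67 without it. Il1b, interleukin 1 beta, averaged 8.80 ± 4.18 CPM on SC and 16.2 ± 7.87 CPM on HFHS. Ccl4 averaged 10.99 ± 4.84 and 22.97 ± 20.2 CPM, and Tnf 2.91 ± 1.04 and 7.23 ± 7.45 CPM, with the highest value of each of these genes in HFHS 4. Without that library the fold change of Ccl4 went from 1.06 to 0.53, that of Tnf from 1.31 to 0.69 and that of Il1b from 0.88 to 0.66. Of all genes tested, 1.99% were higher and 3.18% lower at an unadjusted p under 0.05. Of 26 cytokine and NF-kB feedback genes, 2 were higher (Ccl3 and Il1b) and 0 lower at that p, with a median of 0.20. Without HFHS 4 the counts were 0 and 0 and the median 0.15. The higher count was also 0 without SC 1, without SC 2 or without SC 4. The part of microglial RNA in the class II and cytokine values was not tested.

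**Figure D4:**
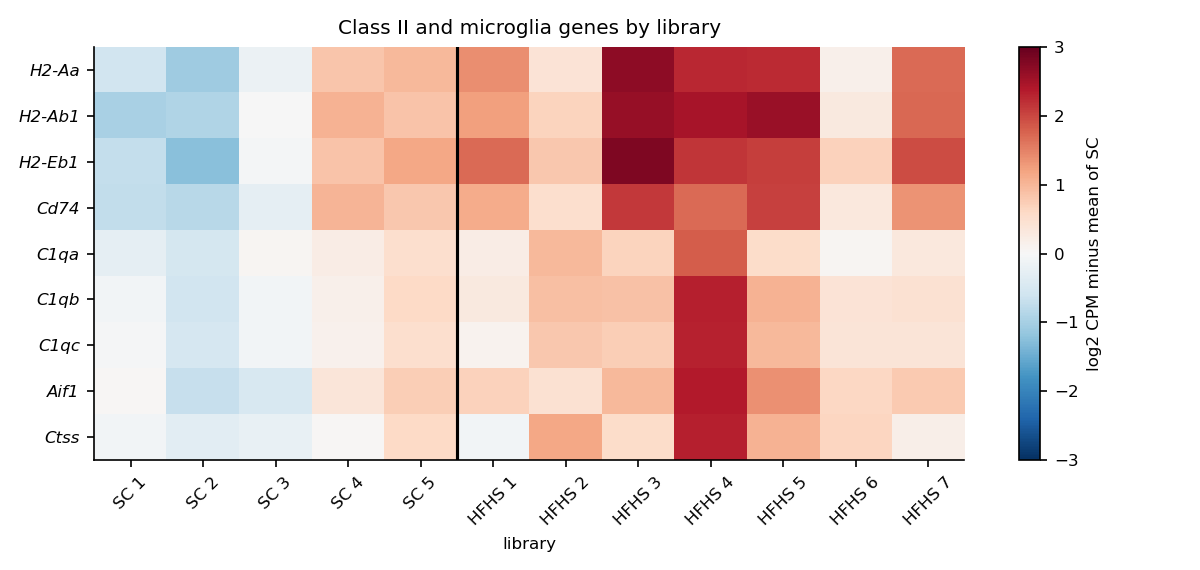
Log2 CPM of 4 class II genes and 5 microglia or macrophage genes in each of the 12 hippocampal libraries, minus the mean of the 5 SC libraries. Red marks levels above that mean and blue levels below, and the black line parts SC from HFHS. The class II genes are deepest in HFHS 3, 4 and 5, whereas the C1q genes, Aif1 and Ctss stand out in HFHS 4.

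Oligodendrocyte precursor markers lay lower on HFHS. These cells divide in the adult brain and give rise to myelinating oligodendrocytes. Of 11 markers, 4 had lower and 0 higher levels at an unadjusted p under 0.05, against 3.18% and 1.99% of all genes tested. The median log2 fold change was -0.90. Pdgfra, their growth factor receptor, had 21.4, 29.97, 19.6, 65.5 and 42.8 CPM on SC and 5.49, 11.9 and 32.1 CPM (lowest, median, highest) on HFHS. Matn4, a matrix protein, had 12.3, 5.30, 14.1, 16.3 and 18.4 CPM on SC and 1.97, 5.00 and 9.54 CPM on HFHS. SC 2 was the low chow library for Matn4, and HFHS 5 the high HFHS library for Pdgfra. Their fold changes were -1.35 ± 0.40 and -1.30 ± 0.38, and -1.34 and -1.43 without the pair numbered 2. Lhfpl3 averaged 14.4 ± 4.68 CPM on SC and 7.67 ± 4.21 CPM on HFHS, and Tnr, the matrix glycoprotein tenascin R, 7.06 ± 1.53 and 4.67 ± 1.78 CPM. Without SC 5, 2 of the 11 markers were at that p and the median was -0.69, and with transcript length as a covariate 6 were and the median was -1.46.

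Mature oligodendrocyte markers gave a different picture, with 0 of 15 genes at an unadjusted p under 0.05 in either direction and a median of 0.01. The summed precursor markers ranged from 556 to 1001 CPM on SC and from 251 to 1022 CPM on HFHS, and the sum includes Sox10 and Olig2, which mature cells also express. Cspg4, the precursor proteoglycan NG2 that pericytes also carry, averaged 23.4 ± 9.31 and 22.1 ± 5.02 CPM. Cspg5, also expressed by astrocytes, was the 1 marker with a positive fold change, at 0.39 ± 0.63.

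Vascular markers went in both directions. Of 10 pericyte and vascular muscle markers, 3 were higher and 1 was lower at an unadjusted p under 0.05. Over all genes tested 1.99% were higher and 3.18% lower. Of the 10 markers, 5 had a positive and 5 a negative fold change. The 3 higher ones are expressed by pericytes, the contractile cells of capillaries. Other pericyte markers of the list went both ways. Rgs5 and Abcc9 had fold changes of 0.42 ± 0.24 and 0.28 ± 0.40, and Pdgfrb and Notch3 of -0.15 ± 0.38 and -0.29 ± 0.34. Vtn, vitronectin, had 449, 504, 901, 388 and 615 CPM on SC and 476, 1066 and 1297 CPM on HFHS, with HFHS 2 the lowest of its group and SC 3 the highest on chow. Kcnj8, a potassium channel subunit, averaged 66.1 ± 23.1 and 117 ± 39.5 CPM, and Higd1b 23.6 ± 7.85 and 42.7 ± 13.4 CPM. Myh11, the myosin of arterial smooth muscle, averaged 28.1 ± 16.1 CPM on SC and 12.6 ± 7.97 CPM on HFHS, while Acta2, smooth muscle actin, averaged 98.4 ± 41.8 and 91.5 ± 42.3 CPM. With transcript length as a covariate 0 were higher and 3 lower. Endothelial markers had 0 of 12 at that p and a median of -0.37, and with the same covariate 6 were lower and the median was -0.93. Slco1a4, a transporter of the barrier, averaged 129 ± 74.3 and 80.1 ± 27.0 CPM, and Tek, the angiopoietin receptor, 37.9 ± 19.6 and 22.8 ± 11.3 CPM, with SC 4 and SC 5 highest for both. Abcb1a, the drug efflux pump, averaged 30.3 ± 20 and 17.9 ± 8.06 CPM, and Cdh5, the junction protein VE-cadherin, 4.37 ± 3.19 and 1.68 ± 1.68 CPM. Without SC 4 the fold changes of Slco1a4 and Abcb1a went from -0.68 to -0.44 and from -0.76 to -0.35.

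Collagens and basement membrane genes lay lower on HFHS, with a median log2 fold change of -0.48. At an unadjusted p under 0.05, 7 of 27 were lower and 0 higher, against 3.18% and 1.99% of all genes tested. The median gene of this list is 4989 bases long, against 2339 for all genes tested. Col3a1, a fibrillar collagen of fibroblasts, had 3.07, 6.13, 7.29, 8.75 and 3.66 CPM on SC and 1.48, 1.66 and 2.77 CPM (lowest, median, highest) on HFHS, without overlap. Its log2 fold change was -1.64 ± 0.29, with an adjusted p of 0.497 by edgeR and 0.000202 by DESeq2. It was -1.74 without the pair numbered 2. Col1a1 averaged 6.87 ± 1.98 and 2.47 ± 1.87 CPM. Col6a2 had 18.3 CPM in SC 4 and between 2.78 and 5.28 CPM in the other SC libraries, against 0.853 to 2.83 CPM on HFHS. Fn1, fibronectin, likewise had 110.3 CPM in SC 4 and 21.01 to 38 CPM in the others, against 10.9 to 30.2 CPM on HFHS. Col18a1, which yields endostatin, averaged 16.3 ± 11.5 and 6.24 ± 3.43 CPM. Without SC 4 the fold changes of Col6a2, Fn1 and Col18a1 went from -1.86 to -0.99, from -1.22 to -0.53 and from -1.39 to -0.92. Without that library, 3 of 27 genes were lower at that p and the median was -0.22.

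Fibroblast markers did not share a direction. At an unadjusted p under 0.05, 1 of 8 was higher and 2 were lower, against 1.99% and 3.18% of all genes tested. Col1a1 and Col3a1 were the lower ones. Slc6a13, a GABA and taurine transporter of the meninges, averaged 14.7 ± 3.57 CPM on SC and 26.1 ± 11.5 CPM on HFHS. Dcn, the proteoglycan decorin, averaged 22.5 ± 7.32 and 30.8 ± 9.53 CPM.

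**Figure D5:**
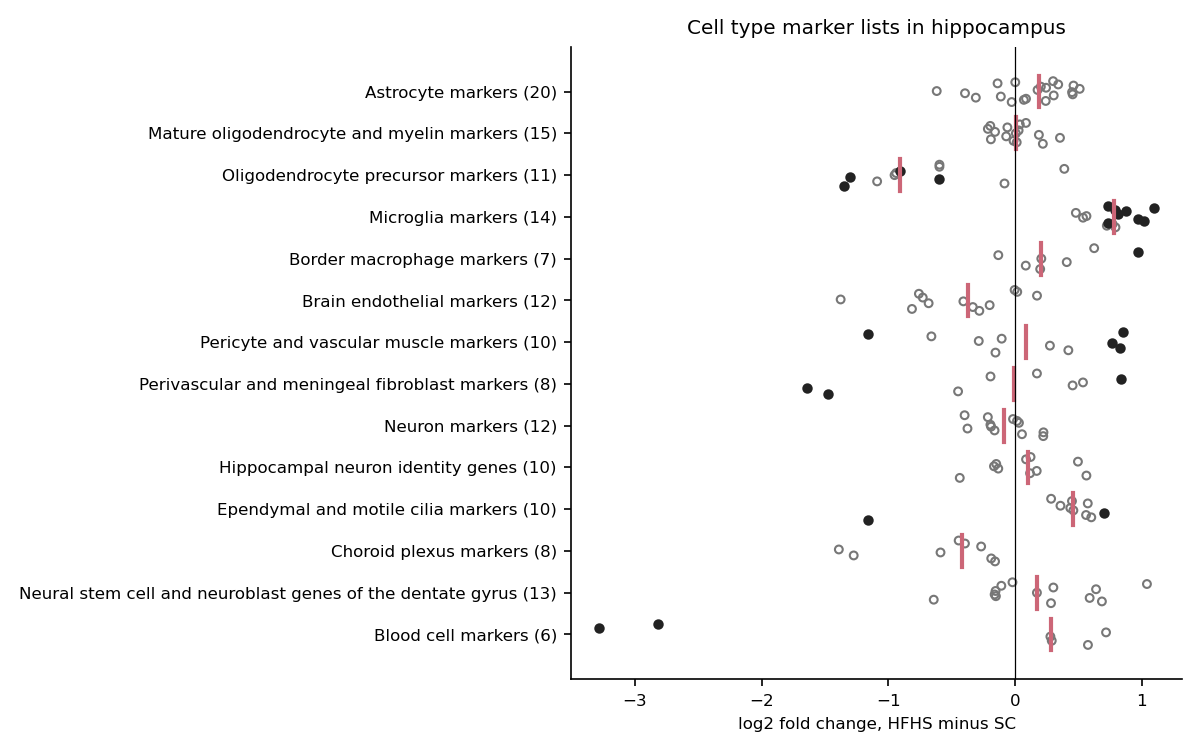
Log2 fold change, HFHS minus SC, of every tested marker in 14 cell type lists, with the number of genes in brackets. Filled points have an unadjusted p under 0.05, open points do not, and the red bar is the list's median. Precursor markers lie mostly left of 0 (median -0.90), microglia markers right of it (median 0.78), and astrocyte (0.19) and mature oligodendrocyte (0.01) medians lie near it.

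Astrocyte markers themselves gave 0 of 20 at an unadjusted p under 0.05 and a median of 0.19. Of 37 reactive astrocyte genes, 1 was higher and 4 were lower at that p, against 1.99% and 3.18% of all genes tested. The higher was Cd14, a receptor for bacterial lipopolysaccharide that microglia and macrophages carry, at 25.9 ± 13.2 CPM on SC and 53.5 ± 34.2 CPM on HFHS. Steap4, a metalloreductase, averaged 4.97 ± 2.43 CPM on SC and 2.64 ± 0.68 CPM on HFHS. Emp1, a membrane protein, averaged 8.84 ± 3.25 and 5.35 ± 2.05 CPM, and Osmr, the oncostatin M receptor, 13.04 ± 5.69 and 6.82 ± 3.45 CPM. SC 4 and SC 5 were highest for both, at 10.8 and 13.3 CPM of Emp1 and 18.7 and 19.7 CPM of Osmr. The other SC libraries held 5.30 to 8.46 and 7.66 to 9.91 CPM, and HFHS libraries up to 9.71 and 11.6 CPM. Lcn2, lipocalin 2, which neutrophils also carry, had 0.151, 0.0801, 0.215, 7.76 and 12.98 CPM on SC and 0.00 to 0.686 CPM on HFHS. The neutrophil genes S100a8 and S100a9 were highest in the same SC 4 and SC 5, at 1.57 and 5.55 CPM for S100a8 and 0.970 and 6.82 CPM for S100a9. In every other hippocampal library S100a8 was at most 0.430 CPM and S100a9 at most 0.594 CPM. The part of neutrophil RNA in Lcn2 was not tested.

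Insulin and IGF signalling genes were examined because the diet challenges glucose control. Of 29 genes 0 were higher and 3 lower at an unadjusted p under 0.05, against 1.99% and 3.18% of all genes tested. The list had a median of -0.21 and a median gene length of 4303 bases. Irs1, the docking protein of the insulin receptor, had 9.47, 8.73, 5.73, 10.98 and 8.73 CPM on SC and 1.88, 2.40 and 6.24 CPM (lowest, median, highest) on HFHS. Only HFHS 2 lay above SC 3, the lowest chow library. Its log2 fold change was -1.35 ± 0.33, with an adjusted p of 0.876 by edgeR, and -1.55 without the pair numbered 2. Igf1r, the IGF1 receptor, averaged 24.3 ± 5.14 and 17.7 ± 4.97 CPM. Insr, the insulin receptor, averaged 15.7 ± 2.70 and 19.2 ± 3.96 CPM, a fold change of 0.29 ± 0.18 in the other direction. Tsc2, a brake on mTOR, averaged 72.6 ± 24.6 and 47.0 ± 33.0 CPM, with SC 2 and HFHS 2 the highest of their diets at 104.5 and 119.7 CPM. Its fold change went from -0.63 to -1.06 without HFHS 2.

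Among the listed genes of sugar metabolism, only Gfpt1 had an unadjusted p under 0.05, as 1 of 13 hexosamine and O-GlcNAc genes. Of all genes tested, 5.17% had such a p in either direction, and Gfpt1 was already named above for its small p. Ogt, which attaches O-GlcNAc to proteins, averaged 139 ± 18.1 CPM on SC and 114 ± 18.6 CPM on HFHS, and Nagk, the salvage kinase, 29.4 ± 3.6 and 35.6 ± 6.16 CPM. Gnpda1, which runs the route in reverse, averaged 46.8 ± 7.81 and 40.9 ± 6.45 CPM. Glucose transport, glycolysis and lactate genes gave 0 of 29 at that p, with a median of 0.03 and fold changes from -0.43 to 0.45. Glycogen genes gave 0 of 15 and a median of -0.08, with fold changes from -0.75 to 0.32.

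Few lipid genes had an unadjusted p under 0.05, which 5.17% of all genes tested had in either direction. Plin2, the coat protein of lipid droplets and a PPAR target, had 25.5, 33.5, 29.1, 42.0 and 42.3 CPM on SC and 32.2, 48.4 and 66.5 CPM (lowest, median, highest) on HFHS, a log2 fold change of 0.46 ± 0.20. HFHS 1 and HFHS 2 lay within the SC range and the other HFHS libraries above it. It was the 1 gene of 21 PPAR receptors and targets at an unadjusted p under 0.05. Cd36, a fatty acid transporter, averaged 1.77 ± 0.867 and 3.55 ± 2.11 CPM, Angptl4, a lipoprotein lipase inhibitor, 9.07 ± 3.96 and 15.9 ± 7.89 CPM, and Acot1, an acyl-CoA thioesterase, 72.0 ± 6.26 and 89.7 ± 18.5 CPM. Lipe, hormone-sensitive lipase, had 33.7, 21.2, 23.8, 24.3 and 20.7 CPM on SC and 7.77, 10.7 and 25.2 CPM on HFHS, a fold change of -0.84 ± 0.27. Elovl7, a fatty acid elongase, averaged 255 ± 62.5 and 197 ± 27.6 CPM. These were the 2 genes of 25 in fatty acid and triglyceride synthesis at that p, both lower, and the list's median of -0.20 turned to 0.17 with transcript length as a covariate. Mlxipl, the carbohydrate response factor ChREBP, averaged 2.82 ± 0.640 and 4.29 ± 2.16 CPM, and its fold change went from 0.60 to 0.34 without HFHS 4. Acacb, which makes malonyl-CoA, averaged 9.68 ± 9.68 and 4.75 ± 2.19 CPM. SC 4 held 25.1 CPM of Acacb, and the fold change went from -1.03 to -0.30 without that library.

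Sterol and lipoprotein genes mostly overlapped. Nr1h3 was the 1 gene of 21 in the lipoprotein and LXR list at an unadjusted p under 0.05. Abca1, the cholesterol exporter that LXR drives, averaged 45.5 ± 32.0 CPM on SC and 35.3 ± 23.1 CPM on HFHS, and Apoe, the main brain lipoprotein, had a fold change of 0.43 ± 0.30. Mylip, which degrades lipoprotein receptors, averaged 8.85 ± 1.69 and 12.6 ± 4.65 CPM, Lpl, lipoprotein lipase, 4.62 ± 0.918 and 6.39 ± 1.68 CPM, and Vldlr, a lipoprotein receptor, 139 ± 5.19 and 112 ± 25.9 CPM. Cholesterol synthesis genes gave 0 of 25 at that p and a median of -0.09. Fatty acid oxidation genes gave 0 higher and 2 lower of 32, against 1.99% and 3.18% of all genes tested, with a median of 0.06. The lower were Hadha, of the mitochondrial trifunctional protein, at 97.0 ± 17.0 CPM on SC and 66.7 ± 24.8 CPM on HFHS, and Acads, the short-chain acyl-CoA dehydrogenase, at 16.1 ± 4.01 and 10.1 ± 4.20 CPM.

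Organelle and stress genes differed in few members. Of 31 unfolded protein response genes, 0 were higher and 2 lower at an unadjusted p under 0.05, against 1.99% and 3.18% of all genes. Syvn1, the ubiquitin ligase of misfolded proteins, had 84.9, 82.1, 88.0, 92.4 and 72.8 CPM on SC and 24.6, 34.9 and 78.6 CPM (lowest, median, highest) on HFHS, with HFHS 1 and HFHS 2 inside the SC range. Ern1, the stress sensor IRE1, averaged 4.88 ± 1.42 and 2.90 ± 1.27 CPM, and the chaperones Canx and Calr 547 ± 75.5 and 421 ± 103 CPM, and 536 ± 166 and 378 ± 146 CPM. Of 46 lysosomal genes 1 was higher and 3 were lower, Acp2 among the lower. Ctss, the cathepsin of microglia and macrophages, averaged 85.4 ± 24.1 and 171 ± 115 CPM with 418 CPM in HFHS 4, and its fold change was 1.0 ± 0.37, or 0.61 without that library. Lipa, acid lipase, averaged 68.4 ± 9.97 and 51.9 ± 11.1 CPM, and Mitf, a regulator of lysosomal genes, 11.5 ± 4.03 and 7.57 ± 2.19 CPM.

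Dissociation of tissue induces early response and heat shock genes, and these varied between libraries. Of 22 such genes 2 were higher and 1 lower at an unadjusted p under 0.05, against 1.99% and 3.18% of all genes tested. Hspa1a, an inducible chaperone, had 540, 292, 538, 245 and 228 CPM on SC and 471, 591 and 1301 CPM on HFHS. Hspa1b is a near-identical copy, so the division of reads between them is uncertain, and it averaged 473 ± 224 and 843 ± 325 CPM. HFHS 3 was highest for both. Nr4a1, an early response receptor, averaged 216 ± 34.6 and 149 ± 30.1 CPM, and Gadd45b 16.5 ± 5.14 and 21.7 ± 9.93 CPM, a fold change of 0.39 that was 0.14 without HFHS 3. Ribosomal protein genes, whose median length is 712 bases, had 67 of 76 positive fold changes and a median of 0.12, with 0 at that p. Respiratory chain subunits of the nucleus, at a median of 1050 bases, had 27 of 36 positive and a median of 0.08. That list also had 0 at that p. Over all genes tested, 9616 of 19036 fold changes were positive. The shortest bin of genes (130 to 1318 bases) had a median of 0.17, above the medians of both lists.

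Whether the hippocampal difference is particular to this region was tested by the interaction of diet and region in 1 model of all 35 libraries and 21574 genes. Against the hypothalamus 0 genes (0.0%) passed an adjusted p under 0.05 in edgeR, 433 (2.01%) had an unadjusted p under 0.05, and DESeq2 called 5 and voom 0. Once genes averaging under 3 on the log2 CPM scale and predicted genes were set aside, Acp2 had the smallest p, with 64.0 ± 8.86 CPM on SC and 31.6 ± 9.21 CPM on HFHS in hippocampus, and 39.0 ± 13.1 and 48.0 ± 18.5 CPM in hypothalamus (SD, n = 6 and n = 5). The difference of the diet effects was -1.32 ± 0.35, with an adjusted p of 1.0 by edgeR. Kdelr1, which retrieves escaped chaperones from the Golgi, gave -0.99 ± 0.28, and Pnmal1 0.81 ± 0.27. Ipp, Kdelc2 and Nudcd1 gave -0.78, -1.06 and -0.74.

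Against the cortex 0 genes passed in edgeR, 2007 (9.3%) had an unadjusted p under 0.05, DESeq2 called 22 and voom 2, and without HFHS 2 edgeR called 1. Cortex cells ran over other columns with larger volumes, so region and column cannot be told apart. Gem gave 1.81 ± 0.43, since its fold change was 1.18 in hippocampus and -0.62 in cortex, and Gadd45b gave 1.76 ± 0.42. Hltf and Wrn, helicases of DNA repair, gave -1.20 ± 0.25 and -1.40 ± 0.32, Senp7, a SUMO protease, -0.87 ± 0.20, and Mterf4, a factor of mitochondrial ribosome assembly, 1.1 ± 0.26. The adjusted p was 0.440 for each of these 6 genes by edgeR. Cdk17 gave -0.39 against hypothalamus and -0.49 against cortex, and H2-Eb1 gave 0.21 and 2.27. The adjusted p was between 0.465 and 1.0 by edgeR for these 2 genes. H2-Aa, H2-Ab1 and Cd74 gave 0.26, 0.39 and 0.020 against hypothalamus, and 1.51, 1.27 and 0.93 against cortex. Their own fold changes in cortex were 0.099, 0.42 and 0.34, whereas that of H2-Eb1 was -0.62.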

How the data were processed

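RNA was measured in 35 libraries, of which 12 enter the diet comparison. The authors quantified transcripts with Salmon on build GRCm38 and used FastQC, per the submitters' processing notes, with versions and reference transcripts not given in the sources used here. Each deposited file lists per transcript a TPM and an estimated count, per the file headers. Of 140948 transcripts, 139852 matched GENCODE mouse release 21, and 1096 did not and were dropped. Counts were then summed to 54119 genes and rounded. edgeR 4.0.16 in R 4.3.3 (filterByExpr, TMM, robust quasi-likelihood test, Benjamini-Hochberg adjustment over all genes tested) compared HFHS with SC. CPM values are TMM-scaled, and the SE is the size of the fold change over the square root of F. Transcript shares of gene TPM (genes with a mean of at least 5 TPM, shares of 10 to 90%) were tested with limma 3.58.1. The procedure was tested on simulated data.

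Alternatives were DESeq2 1.42.0, voom, other scaling and filters, TPM with a pseudocount of 0.5, covariates, the replicate number as a block and leaving out each library. Leaving out SC 2 with HFHS 2, with or without HFHS 4, was chosen after seeing the data. Named genes reach 3 in mean log2 CPM and carry no predicted name: the 10 smallest p in each direction (1 predicted gene was passed over among the higher), up to 4 smallest p of 18 described lists, Atp1b2, Gfap and Aqp4, the 6 genes with the smallest share p, and up to 6 genes per interaction. The level minimum was meant for list members too but was not applied to them, so genes of low level such as Col3a1, Col1a1, Cd36, Cdh5 and Lcn2 are named. Members, the 45 lists and the comparisons were chosen with earlier results of these data known, and which lists to describe was settled after their values were seen. Abca1, Apoe, Insr, Cspg4, Cspg5, Sox10, Olig2, Cd14, Hadha, Acads, S100a8, S100a9 and the genes under other observations were added after their values were seen. So were Rgs5, Abcc9, Pdgfrb, Notch3, Acta2 and Psmg1. A gene that the rule names in the insulin list is not reported here.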

Additional observations from a re-analysis of the deposited data

Results flagged for a closer look

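In each diet and for each named gene, the highest and the lowest library were compared with their nearest neighbour by Dixon's ratio, in 184 groups in all. Chance alone flags about 1 in 20 groups. The mean transcript length of HFHS 2, 1852 bases, stood apart from the next HFHS library at 1633 bases.

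HFHS 4 held 8 of the high values. For the microglia and macrophage genes it had 24.4 CPM of Aif1 (next library 12.0), 370.2 of C1qb (152), 321 of C1qc (127), 113 of C1qa (63.2) and 418 of Ctss (185). For cytokines it had 54.6 CPM of Ccl3 (14.9), 65.7 of Ccl4 (25.3) and 22.4 of Tnf (9.22). HFHS 5 was the high library of its diet for 3 precursor markers, with 32.1 CPM of Pdgfra (16.3), 16.02 of Lhfpl3 (8.49) and 8.30 of Tnr (5.30). Tnr was also low in SC 1 at 4.41 CPM (7.29).

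HFHS 2 was high for Iqce at 22.5 CPM (15.8), Col3a1 at 2.77 CPM (1.96) and Tsc2 at 119.7 CPM (51.1). HFHS 1 was low for Gem at 5.21 CPM (18.8) and high for Igf1r at 27.9 CPM (18.2). HFHS 3 was high for Dnajc9 at 62.7 CPM (56.3) and Gadd45b at 42.4 CPM (25.5), and HFHS 6 for Myh11 at 29.3 CPM (14.1) and Emp1 at 9.71 CPM (5.55). Among chow libraries, SC 4 was high for Col6a2 at 18.3 CPM (5.28) and Fn1 at 110.3 CPM (38). SC 1 was high for Lipe at 33.7 CPM (24.3) and for Ccnyl1, which encodes a cyclin Y-like protein, at 42.9 CPM (12.5).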

How the results depend on the processing

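Of 89 named genes, 84 kept the sign of their fold change in every alternative, and of 2313 alternative values 2294 kept both the sign and their side of the threshold. DESeq2 called 14 genes for the diet effect, among them Cdk17, Acp2, Gfpt1, Cbfa2t2, Man1b1 and Col3a1, and 5 and 22 for its difference from hypothalamus and cortex. Voom called 2 genes against cortex. The other alternatives for genes that kept all libraries called 0, as did leaving out SC 2 and HFHS 2, with or without HFHS 4, for the diet effect. Leaving out 1 library gave 0 calls for the diet effect on genes, with 656 (without HFHS 3) to 2208 (without HFHS 2) genes at an unadjusted p under 0.05, 0 to 19 transcript share calls, 0 calls against hypothalamus and 0 to 1 against cortex. Counts at that p also differed from 984 by over 1.5 times without HFHS 1 (1542), without SC 2 and HFHS 2 (1572), with no filter on low counts (2350) and with voom (2134). DESeq2 gave 708 higher and 687 lower genes at that p, and limma on TPM 220 and 1188.

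Signs turned for Atp1b2 (0.045 without SC 2, single omissions from -0.76 to that value, 0.30 with transcript length as a covariate), Gfap (0.072 without SC 2, single omissions from -0.52, 0.27 with that covariate, 0.14 without SC 2, HFHS 2 and HFHS 4), Dcn (-0.10 with the covariate), Ccnyl1 (0.24 without SC 1, single omissions from -0.76) and the share of transcript Slirp-204 of Slirp (0.0147 on the arcsine scale with the covariate). Aqp4 turned to -0.05 without SC 1, -0.07 without SC 3, -0.13 without HFHS 2, -0.0055 without HFHS 6 and -0.10 without HFHS 7, and reached 0.58 without SC 2. The cause was not tested.

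With the replicate number as a block, 0 genes were called (smallest adjusted p 0.0837 by edgeR, 2097 at an unadjusted p under 0.05), 0 transcript shares and 0 genes in either interaction, and Aqp4 turned to -0.38. Deviations of same-numbered libraries correlated at 0.253, 0.548, 0.278, 0.086 and 0.156 for numbers 1 to 5, and SC 4 and SC 5 correlated best with other numbers (HFHS 5, 0.261, and HFHS 6, 0.299). The labels do not say that numbers pair pools.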

Other observations

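Genes of a few further lists had an unadjusted p under 0.05 in edgeR, without passing adjustment. Over all genes tested, 5.17% had such a p. Galc, the lysosomal enzyme that degrades myelin galactolipid, averaged 37.1 ± 6.67 CPM on SC and 18.5 ± 9.66 CPM on HFHS (SD, n = 5 and n = 7), and Sgms2, a sphingomyelin synthase, 28.2 ± 17.7 and 14.3 ± 6.08 CPM. They were the 2 lower genes of 23 in the sphingolipid list. Thbs2, a thrombospondin that promotes synapse formation, averaged 15.8 ± 8.26 and 8.42 ± 3.30 CPM and was the 1 gene of 20 synapse-forming factors at that p. Ulk2, a kinase that starts autophagy, averaged 57.1 ± 16.8 and 40.1 ± 11.8 CPM, and Uvrag, which acts in autophagosome maturation, 33.0 ± 2.37 and 25.9 ± 5.10 CPM.

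Higher means on HFHS at that p were held by Hmox1, the heme oxygenase, at 8.29 ± 1.21 and 12.3 ± 3.39 CPM, and Ciart, a repressor of the circadian clock, at 4.91 ± 0.766 and 7.81 ± 2.03 CPM. Among 10 ependymal and cilia markers, Foxj1, the regulator of motile cilia, averaged 89.2 ± 26.9 and 39.8 ± 23.5 CPM, while Rarres2, which encodes chemerin, averaged 145 ± 42.0 and 237 ± 118 CPM. The other 8 had a p at or over 0.05, and 9 of the 10 had a positive fold change. Of 13 transcripts encoded by mitochondrial DNA, 12 had a positive fold change with a median of 0.27, and 0 were at that p. All 8 choroid plexus markers had a negative fold change, with 0 at that p. Of all 19036 genes tested, 9616 had a positive and 9420 a negative fold change.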
